A study of Mus musculus with 2 samples.

Results

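The TET dioxygenases Tet1, Tet2 and Tet3, the small CXXC zinc finger genes Cxxc4 and Cxxc5, and Ogt, the gene of O-GlcNAc transferase, were followed in mouse embryonic fibroblasts, mesenchymal cells grown from embryos. The genes were chosen by symbol, and all 6 had a row among the 23365 genes of the authors' deposited table. RNA sequencing had been done on wild-type cells and on cells in which both TET1 and TET2 were knocked out, with 1 library for each of the 2 genotypes. The labels give no clone, passage, embryo or strain. The table compares 2 conditions, headed A and B, without saying which genotype each is, so every ratio below is that of B over A and is assigned to no genotype.

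TET enzymes oxidize 5-methylcytosine in DNA to 5-hydroxymethylcytosine and further products, using iron, oxygen and 2-oxoglutarate. The oxidized bases can be lost at replication or cut out by repair enzymes. Tet1 and Tet3 proteins can carry a CXXC zinc finger, a domain that binds unmethylated CpG dinucleotides. Tet2 lacks one, and its ancestral CXXC domain is held to survive in the neighbouring gene Cxxc4 (also called Idax). Cxxc4 and its relative Cxxc5 (Rinf) bind Dishevelled and dampen Wnt signalling, and Cxxc4 protein is known to lower TET2 protein. OGT adds N-acetylglucosamine to serines and threonines of nuclear and cytoplasmic proteins and binds TET2 and TET3.

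Because CXXC fingers read CpG and the study's title concerns DNA methylation at developmental genes, the 80 bases before the annotated start of 4 of these genes are shown, with every CpG in capitals. The sequences are RefSeq promoter windows of build GRCm38.p6, and each reads 5′ to 3′ on the strand of its gene.
Tet1, chr10:62887325-62887404, minus strand: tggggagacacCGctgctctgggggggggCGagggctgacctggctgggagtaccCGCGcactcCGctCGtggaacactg
Tet2, chr3:133544391-133544470, minus strand: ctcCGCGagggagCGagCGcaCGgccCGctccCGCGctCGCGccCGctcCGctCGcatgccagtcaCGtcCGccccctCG
Tet3, chr6:83441679-83441758, minus strand: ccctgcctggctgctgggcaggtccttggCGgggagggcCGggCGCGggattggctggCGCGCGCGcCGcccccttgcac
Cxxc4, chr3:134236415-134236494, plus strand: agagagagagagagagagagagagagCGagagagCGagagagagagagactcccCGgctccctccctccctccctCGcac

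The Tet2 stretch held 16 CpG, the Tet3 stretch 9, the Tet1 stretch 6 and the Cxxc4 stretch 4. Over the whole 300-base window, from 250 bases before the start to 50 after it, Tet2 had 57 CpG, Cxxc4 26, Tet3 22 and Tet1 17. The 2 overlapping windows of Ogt had 20 and 14. The median over all 32851 windows was 7, and 94.6% of them held at least 1 CpG. A count as high as that of Tet2 was found in 0.152% of windows, as high as that of Cxxc4 in 16.9%, of Tet3 in 23.1% and of Tet1 in 31.4%. The Tet2 window was thus the one that stood at the far end of the distribution, with a GC content of 81.3%. Methylation of these stretches was not measured in these data. The table of windows matched 5 of the 6 genes, and Cxxc5 had no entry. GENCODE M21 places none of the printed Tet1, Tet2 and Tet3 bases in a UTR, and 4 of the Cxxc4 bases in one.

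Each gene's level was read from the mean normalized count of the authors' deposited table, which averages A and B. There Ogt had the highest mean normalized count, 7481, followed by Cxxc5 at 4176 and Tet3 at 3830. Tet2 had 704, Tet1 313 and Cxxc4 96.0 in the authors' deposited table. Long transcripts collect more reads, so levels were compared per kilobase of the longest coding GENCODE M21 transcript. On that scale Cxxc5 led with 1814 normalized counts per kilobase, and Ogt followed with 1390. Tet3 had 351 per kilobase, Tet2 76.7, Tet1 21.8 and Cxxc4 16.9. In this average the order ran from Cxxc5 and Ogt through Tet3 to Tet2, Tet1 and Cxxc4, and its ends were 108-fold apart. Because Tet1 and Cxxc4 had large ratios of opposite sign between A and B, their places and the distance between the ends describe the average and need not hold in A or in B. No spread over libraries can be given for it, so neighbouring ranks cannot be said to differ.

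**Figure D1:**
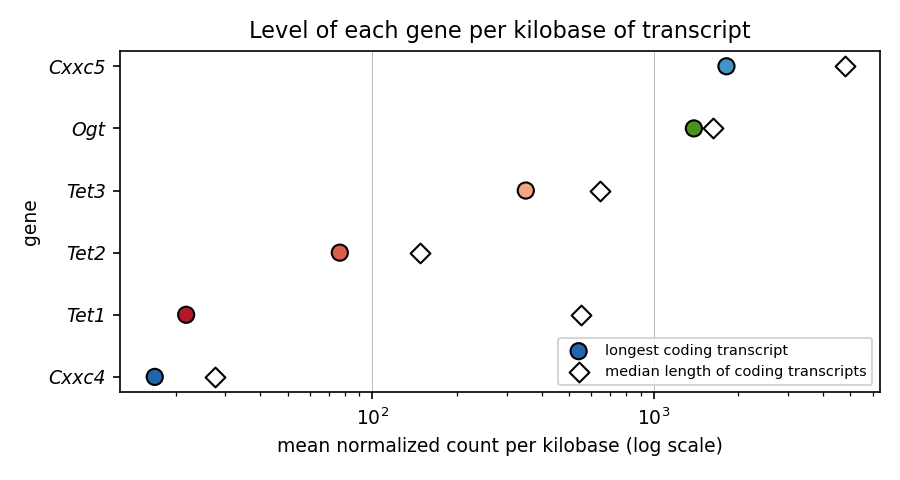
Mean normalized count per kilobase (log scale) of each gene, averaged by the authors over both conditions. Circles use the longest coding transcript and diamonds the median length of the coding transcripts; Tet1 moves from 21.8 to 553 between them, while Cxxc4 is lowest on both.

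Among the 3 dioxygenases, Tet3, the one not targeted, made up 78.1% of the summed level per kilobase of the longest transcript. Tet2 made up 17.1% and Tet1 4.85%. Without a correction for length the shares were 79.0%, 14.5% and 6.46%. With the median length of the coding transcripts, which for Tet1 is 567 bases over 8 annotated transcripts against 14369 for the longest, the shares were 47.9% for Tet3, 11.0% for Tet2 and 41.1% for Tet1. In the average over A and B, Tet3 thus had the highest TET level on each of these scales. On the median-length scale Tet3 and Tet1 lay closer together than the ratio of Tet1 between A and B, so their order there need not hold in each condition. The place of Tet1 below Tet2 held with the longest transcript and without a correction for length, but not with the median length.

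All 3 TET genes had lower values in B. Tet1 showed the largest difference of the family: the authors' deposited table puts it 3.54-fold lower in B, at a log2 ratio of -1.82, with a raw p of 0.0558 and an adjusted p of 0.851 from DESeq. For Tet2 the authors' deposited table gives a log2 ratio of -0.74, which is 1.67-fold lower, and an adjusted p of 1. For Tet3 it is -0.63 in the authors' deposited table, 1.55-fold lower, and the adjusted p is again 1. The log2 ratios of Tet2, a targeted gene, and Tet3, which was not targeted, were thus 0.10 apart, while Tet1 lay at a difference of -1.09 from Tet2 and -1.19 from Tet3. One value per gene covers the whole transcript, so whether reads of a deleted exon are missing cannot be seen, and the values do not tell which of A and B is the knock-out.

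Cxxc4 went the other way, with the largest ratio of the 6 genes in size. In the authors' deposited table it was 4.33-fold higher in B, a log2 ratio of 2.11, on the lowest mean normalized count of the 6. The authors' deposited table gives it a raw p of 0.159 and an adjusted p of 1. Cxxc4 and Tet2 are neighbours on chromosome 3, and their log2 ratios differed by 2.85. In the RefSeq annotation of GRCm38, ordered by lowest coordinate, 7 annotated features and 0 protein-coding genes come between them. Such features can overlap either gene, and Gm26691 is among them. On the other side of Tet2 the coding neighbour is Ppa2, a mitochondrial pyrophosphatase gene, at -0.12 on the log2 scale in the authors' deposited table. GENCODE M21 places the antisense gene Gm26691 over the start of Cxxc4 and the antisense gene B230319C09Rik within the span of Tet3. The library kit does not mark strand, so reads of overlapping genes on opposite strands cannot be told apart.

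Cxxc5 and Ogt had ratios close to 1. The authors' deposited table puts Cxxc5 1.06-fold higher in B, a log2 ratio of 0.09, and Ogt 1.04-fold lower, a log2 ratio of -0.06. Raw p-values in the authors' deposited table were 0.891 and 0.927, and both adjusted p-values were 1. Averaged over A and B, these were also the 2 genes with the highest level per kilobase. The relatives Cxxc4 and Cxxc5 thus had unlike values, 2.11 and 0.09 on the log2 scale of the authors' deposited table.

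Differences of at least 2-fold, a log2 ratio of 1 or more in size, were counted where the mean normalized count was 50 or more (the 2-fold rule). All 6 genes reached that mean, and 2 met the rule, Cxxc4 toward B and Tet1 toward A. Over the 12401 genes at that mean, 17.9% met it, 8.31% toward B and 9.6% toward A. Adjusted p-values under 0.1, which the authors' deposited table takes from DESeq on 1 library per condition, belonged to 0 of the 6 genes, and 0 of them had a raw p under 0.05. Over the 17339 genes with a p, 2.29% had such an adjusted p, 1.42% toward B and 0.871% toward A, and 6.28% had a raw p under 0.05. With 1 library per genotype these p-values compare 2 libraries, and no difference has a replicate check.

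**Figure D2:**
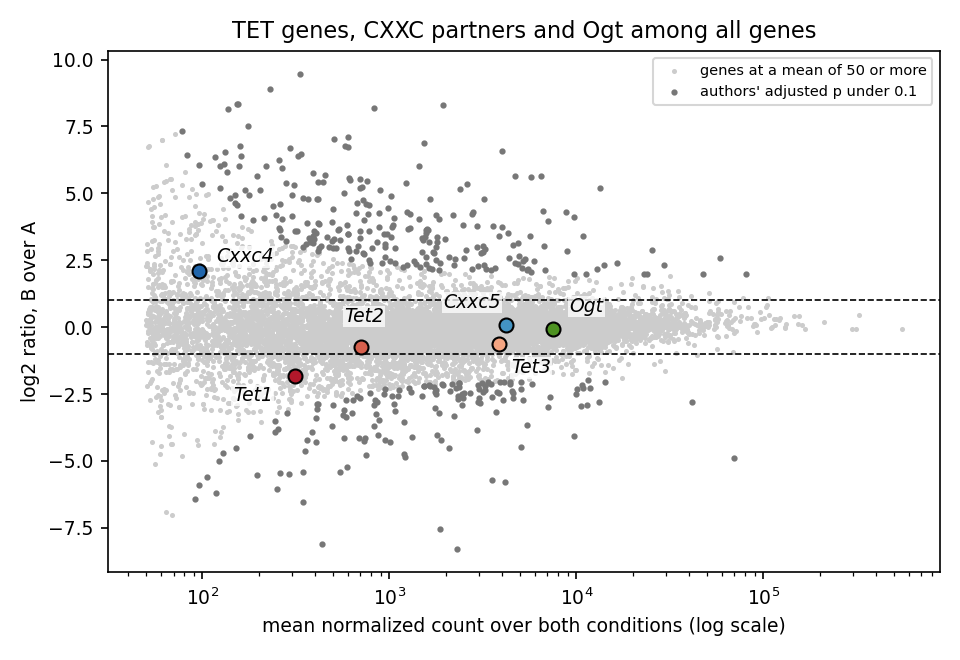
Log2 ratio of B over A against the mean normalized count (log scale), both from the authors' deposited table, for genes at a mean of 50 or more with a finite ratio; dashed lines mark the 2-fold rule and dark points an adjusted p under 0.1. Tet1 (-1.82) and Cxxc4 (2.11) lie outside the dashed lines, and Tet2, Tet3, Cxxc5 and Ogt lie between them.

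Ratios scatter more at low levels, so each gene was placed among the 500 genes nearest to it in mean normalized count of the authors' deposited table, as a description and not as an error. Around Tet1 the middle 90% of these log2 ratios ran from -2.09 to 2.99, and 7.2% of the genes lay below Tet1. Around Cxxc4 it ran from -2.46 to 3.85, and 13% of the genes lay above Cxxc4. In both neighbourhoods a ratio that met the 2-fold rule was common, at 37.2% and 45.6% of genes. Around Tet2 the middle 90% ran from -1.47 to 2.20, with 16.2% of genes below Tet2. Around Tet3, where ratios were tighter, it ran from -0.78 to 0.77, and 7.8% of genes lay below Tet3. Tet3 therefore sat as far down among genes of its own level as Tet1 did, although its ratio was the smaller one. Cxxc5 and Ogt lay inside the middle 50% of their neighbourhoods, -0.29 to 0.26 and -0.21 to 0.26.

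**Figure D3:**
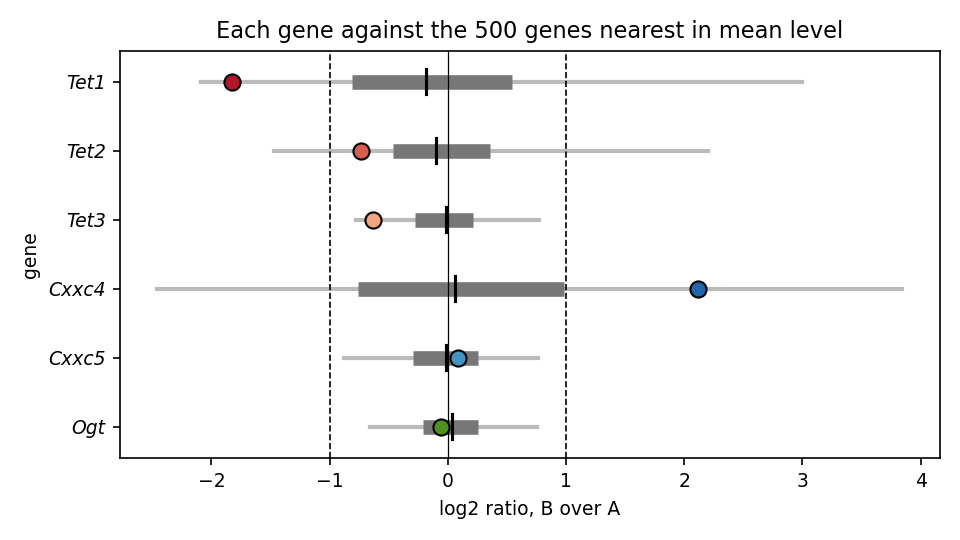
Log2 ratio of each gene (circle) beside the 500 genes nearest in mean normalized count: thick bar, middle 50%; thin bar, middle 90%; tick, median; dashed lines, the 2-fold rule. The 3 TET genes and Cxxc4 lie outside the thick bar and inside the thin one, and Cxxc5 and Ogt lie within the thick bar.

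Gene by gene, the closest in level and ratio were found by distance over log2 mean and log2 ratio in this 1 comparison. Nearest to Tet1 were Gins1, of the replicative helicase, Nsl1, of the kinetochore, and Plekha4, which the authors' deposited table lists at log2 ratios of -1.78, -1.88 and -1.73. Nearest to Tet2 were Dnaaf2, Stard5 and Abcb6, at -0.77, -0.71 and -0.69 in the authors' deposited table. Nearest to Cxxc4 were Hoxa11as, 4930426L09Rik and Alox5, at 2.09, 2.15 and 2.03 in the authors' deposited table. Likeness over 1 pair of libraries is a likeness of a level and a ratio, and no pattern across samples.

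Around the 6 genes, 8 lists of the pathway held 117 genes, of which 108 reached a mean of 50. Of these, 4 lay by the 2-fold rule toward B and 7 toward A, 10.2% in all against 17.9% of all genes at that mean. The share meeting the rule fell with level. Among the 500 genes nearest in level it was 45.6% around Cxxc4, 37.2% around Tet1 and 22.2% around Tet2. Around Tet3, Cxxc5 and Ogt it was 6.2%, 7% and 5.6%. The lists were not matched to all genes on level, so 10.2% against 17.9% does not show that they differed less. Over the 108 genes the authors' deposited table has a median log2 ratio of -0.10, against -0.04 over all genes. The authors' deposited table gives 0 of the 108 an adjusted p under 0.1 from DESeq, and a raw p under 0.05 to 1 gene toward B and 5 toward A. Over all genes with a p, the shares in either direction were 2.29% and 6.28%. The split by direction was not tested.

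Other CXXC zinc finger genes mostly had negative ratios, 7 of 8. Their median log2 ratio was -0.37, where that of all genes was also negative at -0.04, and 1 CXXC gene met the 2-fold rule. It was Dnmt1, the maintenance DNA methyltransferase, listed at a log2 ratio of -1.28 (adjusted p = 0.713) by the authors' deposited table. Kdm2b and Kdm2a, histone demethylases that bind CpG islands, are listed at -0.66 and -0.43 in the authors' deposited table. The histone methyltransferase Mll1 is listed at -0.37 in the authors' deposited table.

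Among 11 genes of O-GlcNAc cycling and hexosamine synthesis, 0 met the 2-fold rule, and the median log2 ratio was -0.24. Gfpt1 and Gfpt2, whose products catalyse the rate-limiting step of hexosamine synthesis, had values of opposite sign in the authors' deposited table, -0.70 and 0.68. Hcfc1, which OGT cleaves, is listed at -0.58 and the corepressor Sin3a, which OGT binds, at -0.46 in the authors' deposited table. Mgea5 encodes the enzyme that removes the sugar, was chosen after its value was seen and lay at -0.10 in the authors' deposited table, beside -0.06 for Ogt.

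Of 14 genes that remove and repair oxidized methylcytosine, 12 reached the mean of 50 and 1 met the 2-fold rule, with a median log2 ratio of -0.25. With a minimum mean of 10 that median was -0.15, and with no minimum -0.062. That gene was Neil3, a glycosylase, which the authors' deposited table puts at -2.16 (adjusted p = 0.466). Parp1, which senses strand breaks, lay at -0.58, the damage response gene Gadd45a at -0.55 and the ligase gene Lig3 at -0.49 in the authors' deposited table. Below the minimum, the authors' deposited table lists mean normalized counts of 0.527 for Tdg, the glycosylase that excises oxidized methylcytosine, and 35.9 for the glycosylase gene Neil2. The annotation behind the counts is not known here, so the value of Tdg does not show whether it was expressed.

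All 6 genes for readers of 5-hydroxymethylcytosine had negative ratios. Their median log2 ratio was -0.32, where that of all genes was also negative at -0.04, and 1 reader gene met the 2-fold rule. This was Wdr76 at -1.85 (adjusted p = 0.739) in the authors' deposited table. Others named by the same rule were 8430410A17Rik, now called Hmces, at -0.78 and Uhrf2 at -0.28 in the authors' deposited table.

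Among 15 genes that supply 2-oxoglutarate, the cosubstrate of the TET enzymes, or ascorbate, the median log2 ratio was 0.17, or 0.093 with no minimum mean, and 1 met the 2-fold rule. It was Idh2, the mitochondrial isocitrate dehydrogenase that makes 2-oxoglutarate, which the authors' deposited table lists at -1.56 with a raw p of 0.0144 and an adjusted p of 0.350 from DESeq. Its cytosolic relative Idh1, chosen after its value was seen, lay at -0.08 in the authors' deposited table. The ascorbate transporter gene Slc23a2 is listed at -0.52, the glutamate dehydrogenase gene Glud1 at 0.46 and the NAD-dependent Idh3b at 0.35 in the authors' deposited table.

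Of 29 other 2-oxoglutarate dioxygenases, 16 had positive and 13 negative ratios with a median log2 ratio of 0.04. By the 2-fold rule 2 lay toward B, the collagen prolyl hydroxylase genes Leprel1 and P4ha3 at 1.71 and 1.21 in the authors' deposited table. On the side of A was 1, the peroxisomal Phyh at -1.44 in the authors' deposited table. Egln3, an oxygen sensor, is listed at 0.95 in the authors' deposited table. The 3 TET genes, at -1.82, -0.74 and -0.63, lay below the median of this wider enzyme class, and that difference was not tested.

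Over 9 genes that regulate or recruit TET proteins the median log2 ratio was -0.17, with 3 more below a mean of 50, and it was 0.03 at a minimum mean of 10. The 2-fold rule was met by 1, Ebf1, a transcription factor that binds TET2, at 1.17 (adjusted p = 1) in the authors' deposited table. Vprbp, of the ubiquitin ligase that modifies TET proteins, is listed at -0.55, the ligase scaffold Cul4a at 0.38 and the protease gene Capn2 at 0.36 in the authors' deposited table.

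Wnt signalling genes around Dishevelled, the partner of Cxxc4 and Cxxc5, divided evenly, 9 positive and 9 negative, with 3 more below a mean of 50. By the 2-fold rule 1 lay toward B, the Dishevelled inhibitor gene Nkd2 at 1.69 in the authors' deposited table. Toward A were 2, Dact2, whose product binds Dishevelled, at -2.15 and the transcription factor gene Tcf7 at -1.98 in the authors' deposited table. Dact1 is listed at -0.66 and Axin2, a common readout of the pathway chosen after its value was seen, at 0.14 in the authors' deposited table.

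**Figure D4:**
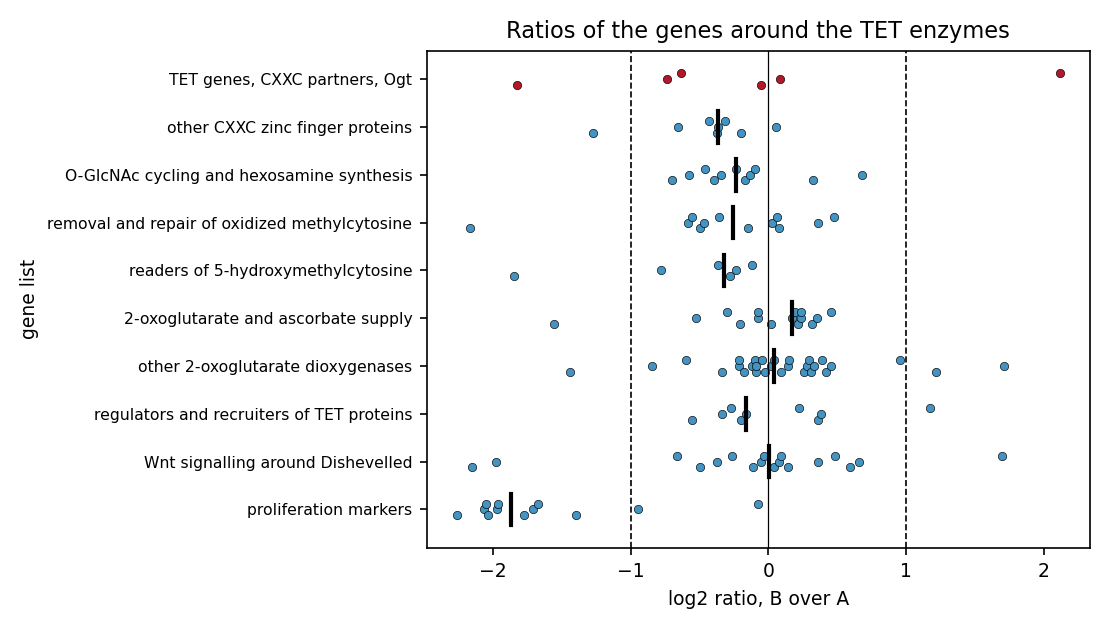
Log2 ratios of B over A in the authors' deposited table for the 6 genes (red) and for each list (blue) at a mean of 50 or more; vertical bars are list medians and dashed lines the 2-fold rule. Medians of the pathway lists lie between -0.37 and 0.17, and that of the proliferation markers at -1.87.

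The cells carried fibroblast transcripts: all 12 fibroblast markers reached a mean of 50, and the authors' deposited table lists Fn1 and Col1a1 at means of 550534 and 312018. All 8 pluripotency markers were below it, the highest being Nanog at 40.4 in the authors' deposited table. Of 6 epithelial, 5 endothelial and 5 blood cell markers, 1, 2 and 2 reached it, with summed mean normalized counts of 151, 574 and 129. The authors' deposited table lists the macrophage gene Emr1 and the pluripotency genes Tdgf1 and Zfp42 at 0. Of the 5 markers of other cell types at the mean of 50, 4 met the 2-fold rule, which 17.9% of all genes at that mean met. These markers had low levels, and among the 500 genes nearest in level to Cxxc4 and to Tet1, 45.6% and 37.2% met it. The endothelial receptor genes Kdr and Tek lay at log2 ratios of 2.78 (raw p = 0.0023, adjusted p = 0.1001 from DESeq) and 1.21, and the macrophage receptor gene Csf1r at 1.05, while the keratin gene Krt18 lay at -2.29 in the authors' deposited table. Most proliferation markers and part of the fibroblast markers met it as well. Of 12 proliferation genes, 10 lay toward A by the 2-fold rule, their median log2 ratio was -1.87, and the authors' deposited table gives 3 an adjusted p under 0.1. Among the fibroblast markers 6 lay toward B by that rule, and 5 reached an adjusted p under 0.1 according to the authors' deposited table. The 12 fibroblast markers had log2 ratios from -0.08 to 5.66, the value of Dcn, with a median of 0.90. Over all genes at a mean of 50, 9.6% met the 2-fold rule toward A and 8.31% toward B. Of all genes with a p, 0.871% had an adjusted p under 0.1 from DESeq toward A and 1.42% toward B. The part of any of these marker groups in the ratios of Tet1, Dnmt1, Neil3 and the other genes was not tested. In bulk RNA, fewer cells with a transcript and less of it per cell cannot be told apart.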

How the data were processed

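Per the labels' protocols, DNase-treated total RNA from frozen pellets was made into TruSeq RNA v2 libraries; the labels' molecule field says genomic DNA. TopHat2 2.0, DESeq and build mm9 are named in the submitters' processing notes, with no counter, annotation or dispersion setting. The signal is the deposited BaseMean, which the authors averaged over A and B from counts scaled by size factors. The authors' deposited ratio, or fold, is B over A, and the deposited log2 ratio is its base-2 logarithm with no pseudocount. The p-values are the authors' own, Benjamini-Hochberg adjusted over 17339 genes; the other 6026 have a mean of 0. There were 2 columns, 1 per condition, whose names fit neither sample's labels. They were not used, so no level per library, depth or counting interval is given.

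The 6 genes and 14 lists (165 entries, 9 matched by an older symbol) were chosen with earlier results of these data known. Named are the 6 genes, up to 4 members of each pathway list with the largest ratios in size at a mean of 50 or more, the 3 genes nearest to Tet1, Tet2 and Cxxc4, and, chosen afterwards, those the text says so of, Ppa2, Tdg, Neil2 and single marker genes. One gene that this rule takes is not reported here. Lengths came from GENCODE M21 and promoter windows from RefSeq, both on GRCm38, a build other than the authors'. Python 3.11.15 and pandas 2.3.3 were used, and the 2-fold rule and centring were tested on simulated data. Alternatives were centring on the median or a trimmed mean, minimum means of 10, 200 and none, 1.5-fold and 4-fold rules, an adjusted p under 0.05, a raw p, and other transcript lengths.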

Additional observations from a re-analysis of the deposited data

How the results depend on the processing

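Each of the 6 genes kept the direction of its ratio under both centrings tried. Centring on the median gave log2 ratios of -1.79 for Tet1, -0.70 for Tet2, -0.60 for Tet3, 2.15 for Cxxc4, 0.12 for Cxxc5 and -0.022 for Ogt. Centring on the trimmed mean (30% of ratios and 5% of levels trimmed at each end) gave -1.78, -0.70, -0.59, 2.15, 0.13 and -0.016 in the same order. Of the 6 genes, the count toward B by the 2-fold rule went from 1 to 0 at a minimum mean of 200, which drops Cxxc4. The count toward A went from 1 to 0 with a 4-fold rule and to 3 with a 1.5-fold rule, which takes in Tet2 and Tet3. Of the pathway genes, 4 toward B became 0 with the 4-fold rule, 8 with the 1.5-fold rule and 7 with no minimum mean, and 7 toward A became 2 and 13 under those folds. With a raw p under 0.05 in place of the adjusted p, 0 became 1 toward B and 5 toward A. Ranked by level, Ogt was 1 and Cxxc5 2 without a correction for length. With the median transcript length, an alternative added after the data were seen, Tet1 was 4 and Tet2 5. The median log2 ratio of the genes that regulate or recruit TET proteins turned from -0.17 to 0.03 at a minimum mean of 10 and with none. That of the genes that remove and repair oxidized methylcytosine went from -0.25 to -0.15 at a minimum mean of 10 and to -0.062 with none. With no minimum, that of the genes supplying 2-oxoglutarate or ascorbate went from 0.17 to 0.093, and that of all genes from -0.04 to 0.02. Of 189 other values, for single lists and for all genes, 158 stayed close to their main value and 31 moved. Depth per library was not used here, and with 1 library per genotype none could be left out.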
